A study of Homo sapiens with 3 samples.

Results

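The genes of the cytosolic ribosomal proteins code for the protein part of the ribosomes that translate messenger RNA in the cytoplasm. They were picked by symbol from RefSeq's gene records for GRCh38.p14 (RPL or RPS with a number, their A, X, L and P forms, RPSA and FAU). RPS6K kinase genes and chromosome Y were left out. This gave 86 genes out of 19974 that code for protein on chromosomes 1 to 22 or X. Of these, 33 code for proteins of the small subunit and 53 for proteins of the large subunit, and 8 are L-form copies, paralogs of another member (RPL3L, RPL7L1, RPL10L, RPL22L1, RPL26L1, RPL36AL, RPL39L and RPS27L). For each gene, the H3K27ac and H3K4me3 peaks that touched the interval from 1 kb before to 1 kb after either end of its record were collected.

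The peaks come from chromatin immunoprecipitation with sequencing (ChIP-seq) in untreated KBM7 cells of wild-type genotype. KBM7 is a human line from a chronic myeloid leukaemia with the BCR-ABL fusion and holds nearly a haploid set of chromosomes. H3K27ac was pulled down with an Abcam antibody and H3K4me3 with a Millipore antibody, in 1 library each, beside an input library. With 1 library per mark and a single condition there is no replicate error and no test; intervals cover counting only. There were 96659 peaks of H3K27ac and 36951 of H3K4me3, and the median peak had 21 and 39 fragments at its summit, respectively. All 8 myeloid genes used as a label check (CD33, CD34, GATA2, KIT, MPO, MYB, RUNX1 and SPI1) had both marks at a gene end. Of all protein-coding genes 60.4% had both. The lowest folds of the 8 were those of MPO, 11.0 for H3K27ac and 13.3 for H3K4me3. ALB, INS and MYOD1, genes of liver, pancreatic islet and muscle, had neither, and the neuronal gene NEUROD1 had an H3K4me3 peak alone, at 4.82-fold.

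Most ribosomal proteins are needed in equal amounts, and their messengers are among the most abundant in growing cells. Most of these messengers begin with a C followed by an unbroken run of pyrimidines (C or T in DNA), the 5′ terminal oligopyrimidine tract or TOP, through which the mTOR pathway sets their translation. H3K4me3 is a methylation found mainly around transcription starts, and H3K27ac is an acetylation that marks promoters and enhancers in use.

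The start of transcription is where the marks of a promoter are placed, so the sequences there are shown first. RefSeq's table of promoters for GRCh38.p14 held 69 of the 86 members. RPL3L, RPL5, RPL7, RPL8 and RPL39L were among those that did not match. Each line runs from 40 bases before the most upstream listed start to 20 bases from it on, 5′ to 3′ on the gene's strand. Capitals mark the unbroken C or T run that holds the first transcribed base. The first 5 carry a long run and span the extremes of H3K27ac, from RPS19, RPLP2, RPL35 and RPS12 among the highest members to RPS24 among the lowest.
RPS19, chr19:41860215-41860274, plus strand: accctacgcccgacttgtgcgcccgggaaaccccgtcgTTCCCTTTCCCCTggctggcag
RPLP2, chr11:809927-809986, plus strand: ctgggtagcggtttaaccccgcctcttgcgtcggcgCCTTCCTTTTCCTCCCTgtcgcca
RPL35, chr9:124861938-124861997, minus strand: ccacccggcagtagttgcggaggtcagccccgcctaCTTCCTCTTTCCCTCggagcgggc
RPS12, chr6:132814529-132814588, plus strand: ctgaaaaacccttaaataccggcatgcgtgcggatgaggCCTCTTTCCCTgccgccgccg
RPS24, chr10:78033823-78033882, plus strand: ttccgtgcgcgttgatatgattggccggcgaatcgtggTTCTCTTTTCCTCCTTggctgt

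The next 4 have no pyrimidine at the most upstream listed start itself. RPL11 has 2 listed starts, and the other is not shown. RPS26 is among the 5 members of highest H3K27ac fold, RPL11 and RPS28 are among the 5 of lowest, and RPS4X is second in H3K4me3.
RPS26, chr12:56041878-56041937, plus strand: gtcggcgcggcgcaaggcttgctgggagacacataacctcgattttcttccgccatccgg
RPL11, chr1:23691739-23691798, plus strand: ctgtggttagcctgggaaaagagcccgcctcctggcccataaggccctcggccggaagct
RPS28, chr19:8321456-8321515, plus strand: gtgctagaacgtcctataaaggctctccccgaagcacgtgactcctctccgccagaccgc
RPS4X, chrX:72277229-72277288, minus strand: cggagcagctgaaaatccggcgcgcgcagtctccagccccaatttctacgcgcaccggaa

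The last 4 set the genes RPL26 and RPL10 beside RPL26L1 and RPL10L, the only members of the 86 without peaks at a gene end. At the starts shown, RPL26 has a long run and its copy has none, whereas neither RPL10 nor RPL10L has a pyrimidine. RPL10 has 3 listed starts and RPL26L1 has 2, and their other starts are not shown.
RPL26, chr17:8383174-8383233, minus strand: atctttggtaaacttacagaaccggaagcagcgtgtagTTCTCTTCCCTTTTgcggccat
RPL26L1, chr5:172958689-172958748, plus strand: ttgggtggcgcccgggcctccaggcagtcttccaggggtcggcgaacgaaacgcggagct
RPL10, chrX:154398025-154398084, plus strand: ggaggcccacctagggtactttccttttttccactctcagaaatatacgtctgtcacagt
RPL10L, chr14:46651762-46651821, minus strand: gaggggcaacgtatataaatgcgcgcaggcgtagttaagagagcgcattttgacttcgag

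Over the 69 members, the first transcribed base of the most upstream listed start was C in 49, against 11.3% of 15812 protein-coding genes in the table. A run of at least 8 pyrimidines held the start in 43 members, or 62.3%, against 4.6% of all these genes. The median run was 10 bases in members (interquartile range 1 to 13) and 0 in all genes, and the longest were 25 bases in RPL7A and 22 in RPL39. When any listed start counted, the members with such a run were 48, against 6.25% of all genes. When the run only had to come within 5 bases of the listed start, they were 50, against 11.3%. RPL4 and RPL17, whose listed starts are an A, are of this kind, with runs of 12 and 16 bases. The listed starts are RefSeq's and were not measured in these cells.

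**Figure D1:**
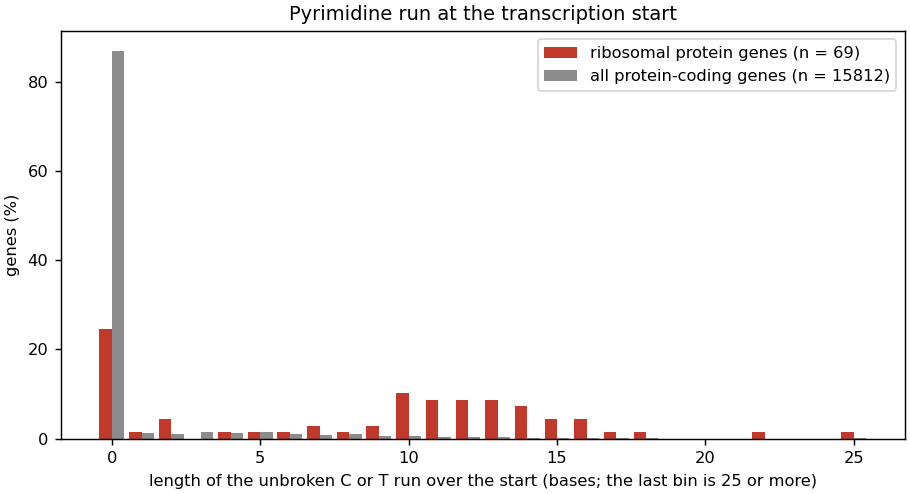
Share of genes (%) by the length in bases of the unbroken C or T run that holds the most upstream listed start. Red bars are the 69 ribosomal protein genes, and grey bars the 15812 protein-coding genes of the promoter table. A run of 0 stands for a start at A or G, seen in 24.6% of the ribosomal protein genes, and the red bars gather between 10 and 16 bases.

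The tract was rarer in the comparison lists, other than the translation factors and other genes known for such starts, where 7 of 13 matched genes had a run of at least 8. Of the mitochondrial ribosomal protein genes 2 of 69 had one, of the proteasome subunit genes 1 of 42, and of the nuclear genes of oxidative phosphorylation 6 of 70. Short motifs were then looked for in the 300-base window from 250 bases before the start to 50 from it on, on both strands, and TATAAA on the gene's strand between 45 and 15 bases before the start. None of these motifs contains another. CCGGAAG, the core bound by ETS factors, was found in 23 of 69 members against 14.1% of all promoters, and AAGATGG, part of the YY1 motif, in 10 against 6.36%. Both were as frequent or more so in the mitochondrial list, at 29 and 23 of 69. Sp1's GGGCGG was found in 38 members (58.3% of all promoters), CCAAT in 24 (36.4%), the E-box CACGTG in 4 (8.82%) and TATAAA in 4 (3.73%), shares near those of all promoters. The 4 members with TATAAA were RPL10L, RPL22L1, RPLP0 and RPS28. A match describes the letters in the window and says nothing of binding.

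Both marks lay at a gene end in 84 of the 86 members (97.7%, 95% Wilson interval 91.9 to 99.4%), against 60.4% of all protein-coding genes. The figure was the same for either mark alone, against 63.2% for H3K27ac and 66.7% for H3K4me3. All 33 genes of the small subunit had both. Other housekeeping lists were also largely marked, with 75 of 77 mitochondrial ribosomal protein genes, 42 of 48 proteasome genes and 76 of 86 genes of oxidative phosphorylation. No peak of either mark was shared by the ends of 2 members, so that the members' values come from separate intervals.

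RPL10L and RPL26L1 were the exceptions, and they differ. RPL10L, a copy known from the testis that lies at 46651010 to 46651781 on chromosome 14, had no peak anywhere near. The nearest H3K4me3 peak was 1024.1 kb from its record and the nearest H3K27ac peak 1397.3 kb. RPL26L1, at 172954094 to 172969771 on chromosome 5, has its most upstream listed start inside the record, away from both ends. An H3K4me3 peak of 65.9-fold and 270 fragments ran from 172958296 to 172960843 over that start at 172958729. An H3K27ac peak of 14.1-fold and 77 fragments lay inside the same interval. RPL10L was the only one of the 69 members with a listed start that had neither mark within 1 kb of any of its own starts.

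The reverse case also occurred, where a member had its strongest peaks at the start of a neighbour or away from its own listed start. For RPL3L, a copy known from muscle, the peaks of 81.4-fold for H3K4me3 and 15.3-fold for H3K27ac had their summits 186 and 187 bp from the listed start of MSRB1. The other end of the RPL3L record, at 1954689 on chromosome 16, had no H3K27ac peak within 4.23 kb and no H3K4me3 peak within 4.29 kb. For RPL7L1 the strongest summits lay 143 bp (H3K4me3) and 162 bp (H3K27ac) from the start of PEX39, and its own start had 57.9-fold and 26.4-fold. For RPL6 they lay at the end of a record that stops at 112418835 on chromosome 12, next to PTPN11, which begins at 112418947. RPL6 is on the minus strand, so this is also the 5′ end of its own record, and the peaks cannot be given to either gene alone. RPL6 has 2 listed starts, more than 7 kb away, and only the one further downstream had peaks within 1 kb, an H3K4me3 peak of 50.8-fold and an H3K27ac peak of 20.6-fold. For RPS18 the strongest H3K27ac peak, 26.4-fold, lay 5271 bp from its own start, the nearest one listed, where the fold was 22.7. For RPL28 the strongest H3K27ac summit lay at the listed start of TMEM238, 1640 bp from its own start. RPL23A and RPS2 have no listed start here, and their strongest H3K27ac summits lay 237 bp from a start of TLCD1 and 242 bp from that of NDUFB10, with the H3K4me3 summit of RPL23A 170 bp from another start of TLCD1. Among members with a listed start, 4 of 67 had the strongest H3K27ac summit over 1 kb from every own start and 2 of 67 the strongest H3K4me3 summit. Within 1 kb of the most upstream listed start, 67 of 69 members had H3K4me3 (67.6% of genes with a listed start) and 67 of 69 had H3K27ac (63.4%). Over all own starts, the medians over members were 66.0-fold for H3K4me3 and 26.3-fold for H3K27ac.

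H3K4me3 intervals were wider at members than at other genes. The widest H3K4me3 peak at an end had a median of 4218.5 bp over the 84 members (interval of the median 3944 to 4399 bp, interquartile range 3420 to 4724 bp), against 2587 bp over the 13330 protein-coding genes with the mark. It was above that gene median in 79 of 84 members (about 50% of genes with the mark, by definition of a median). The widest 10% held 34 of 84 (9.99% of genes with the mark). Widths ran from 1897 bp in RPL39L to 7196 bp in RPS18. The other members of the widest 5 were RPL7 with 6965 bp, RPL36AL with 6390 bp, RPL39 with 6347 bp and RPL28 with 5811 bp. At the narrow end RPL39L was followed by RPL3L with 2219 bp, RPL29 with 2300 bp and RPL27 with 2309 bp. Both ends of the range hold genes of core proteins, such as RPS18 among the widest and RPL29 among the narrowest, beside copies.

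**Figure D2:**
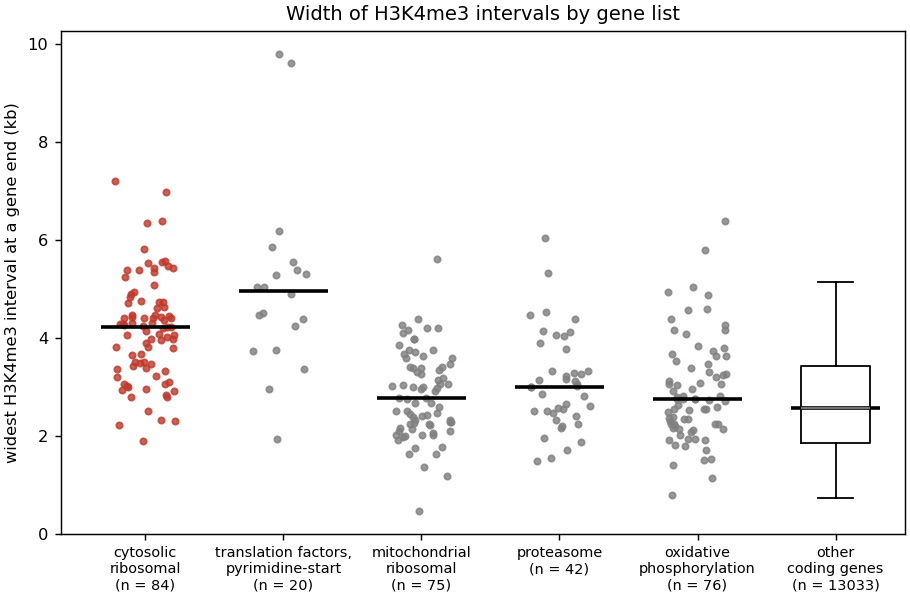
Width in kb of the widest H3K4me3 peak at a gene end, 1 point per gene, with the median as a bar, for the cytosolic ribosomal protein genes (red, n = 84) and 4 comparison lists (grey). The box for all other protein-coding genes spans the quartiles with whiskers at the 5th and 95th percentiles. The red median lies at 4218.5 bp and those of the mitochondrial ribosomal, proteasome and oxidative phosphorylation lists between 2754 and 2999 bp.

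Lists of other complexes were narrower. Median widths were 2769 bp for the mitochondrial ribosomal protein genes, 2999 bp for the proteasome genes and 2754 bp for the genes of oxidative phosphorylation. The translation factors and TOP genes had wide intervals as well, with a median of 4960 bp over 20 of 21 genes. RACK1, a scaffold protein of the small subunit, had 9789 bp, HNRNPA1, a splicing regulator, 9601 bp, EIF4A2, an initiation helicase, 6178 bp, and NPM1, a nucleolar assembly factor, 5379 bp. The narrowest of that list was EIF3F, a subunit of the initiation factor eIF3, with 1932 bp.

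Members are short genes, with a median record of 5025 bp against 24170 bp over all protein-coding genes. Genes other than members with records between 3307 and 7216 bp, the middle range of the members' lengths, had a median width of 2471 bp (n = 1287). Among members, length and width showed no trend, with a Spearman coefficient of 0.028 and a Pearson coefficient of -0.034 over 84 genes that share 1 library. Peaks of H3K4me3 covered a median of 69.2% of the member's record (interquartile range 48.3 to 92.9%), against 6.63% over all genes with the mark, and those of H3K27ac 51.2% against 8.06%. The share for H3K4me3 went down to 7.02% in RPL39L and 1.76% in RPL3L, where H3K27ac covered none of the record. A single H3K4me3 peak reached the windows at both ends of 32 of 84 members, against 4.17% of genes with the mark, and a single H3K27ac peak those of 17 of 84, against 3.78%. The covered share and the reach to both ends depend on gene length, and neither was compared with genes of like length.

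The added width lay on the transcribed side. From the most upstream listed start, the H3K4me3 peaks within 1 kb reached a median of 3046 bp downstream in 67 members (interquartile range 2424 to 3576.5 bp), against 1664 bp in 10685 protein-coding genes. Both sets are genes with H3K4me3 within 1 kb of that start. Upstream the peaks reached 1009 bp against 874 bp. At 2 kb downstream a peak still covered 91.0% of these members and 36.9% of these genes, and at 3 kb 58.2% and 13.5%. Upstream the shares were 53.7% and 42.3% at 1 kb, 10.4% and 13.4% at 2 kb, and 14.9% and 4.82% at 4 kb. The comparison lists reached less far downstream, with 1593 bp for the mitochondrial ribosomal, 1972 bp for the proteasome and 1680 bp for the oxidative phosphorylation genes, whereas the translation factors and TOP genes reached 3239 bp (n = 13).

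**Figure D3:**
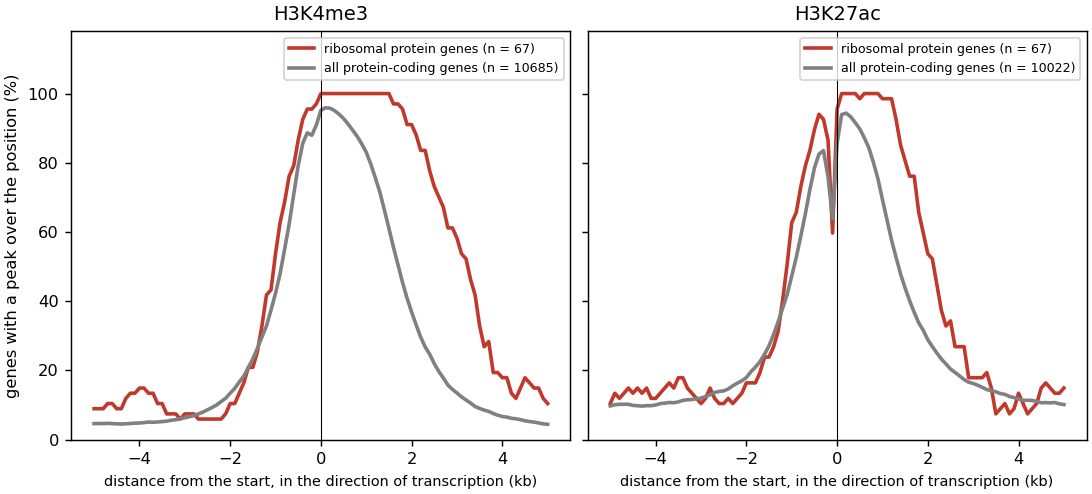
Share of genes (%) with a peak over each position from 5 kb before to 5 kb after the listed start, in the direction of transcription, for H3K4me3 (left) and H3K27ac (right). Red lines are ribosomal protein genes and grey lines all protein-coding genes, in each case those with the mark within 1 kb of the start. The red and grey lines of H3K4me3 lie closer together upstream, with 10.4% and 13.4% at 2 kb, than downstream, with 91.0% and 36.9% at 2 kb.

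The reach was longer downstream than upstream in 63 of 67 members, against 78.4% of genes with H3K4me3 within 1 kb of the start. The 4 others were RPL36AL, RPS21, RPS25 and RPS29. All 4 have another gene that starts on the opposite strand within 1 kb upstream (MGAT2, RPS21-DT, TRAPPC4 and LRR1). The sides were nearly equal in RPS25 (2183 bp upstream, 2174 bp downstream) and RPS21 (1851 and 1793 bp). Members that reached further downstream, such as RPL9 and RPL12, also have an opposite gene. RPL36AL had the longest upstream reach, 4065 bp, and RPS18 the longest downstream, 5985 bp. RPS29, a small-subunit gene, had the shortest downstream reach, 1512 bp. The strongest H3K4me3 summit was downstream of the start in 63 of 67 members, at a median of 342 bp against 245 bp. In genes with the mark within 1 kb of the start the share was 82.1%. Of the 4 members with an upstream summit, 3 have an opposite gene and RPS27L has none. The listed start lay inside an H3K4me3 peak in all 67 members, and in 95.2% of genes with the mark within 1 kb of it.

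**Figure D4:**
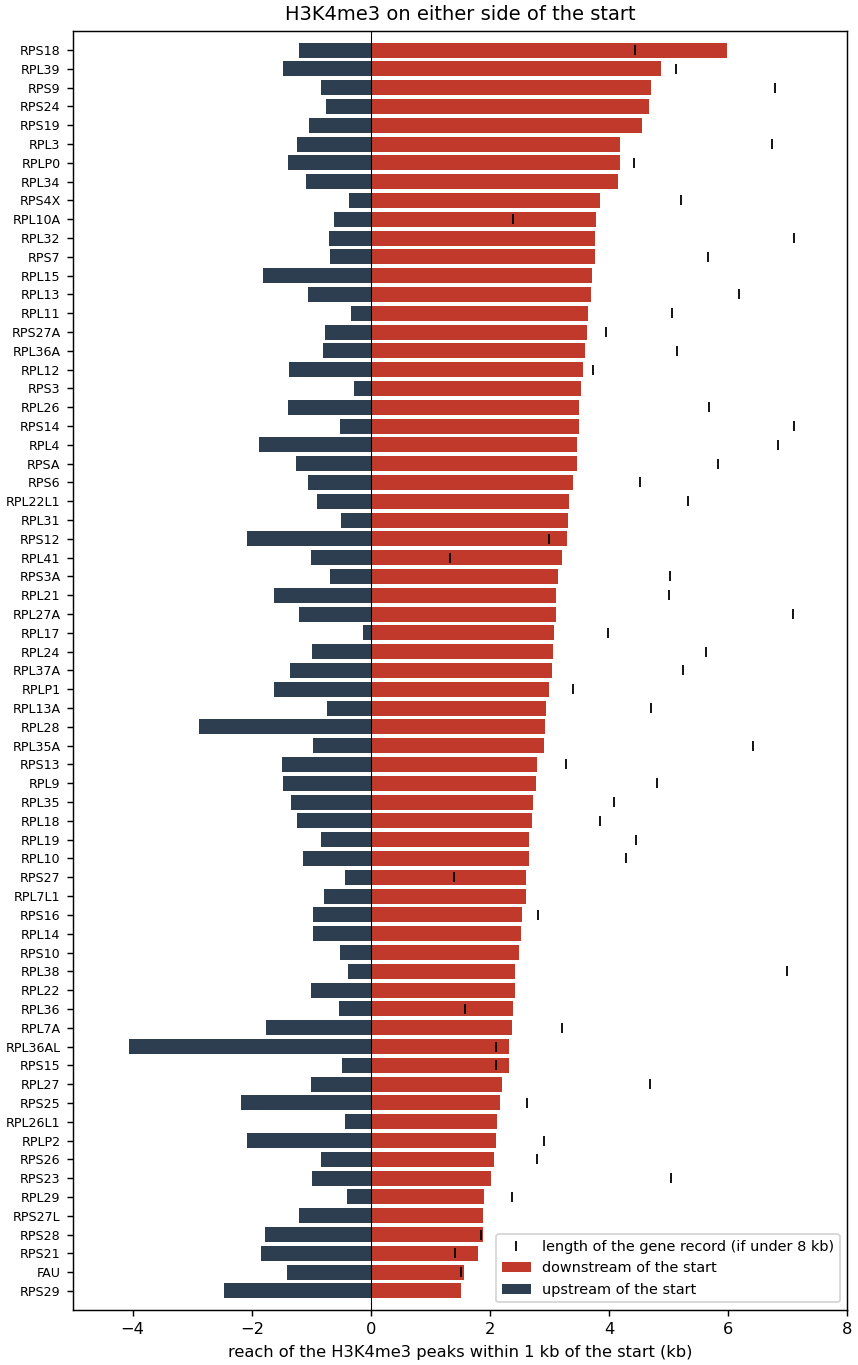
Reach in kb of the H3K4me3 peaks within 1 kb of the listed start, downstream (red) and upstream (dark blue), 1 bar per member (n = 67), ordered by downstream reach. Ticks give the length of the gene record where it is under 8 kb. In all but 4 members the red bar is longer than the blue, and downstream reach falls from 5985 bp in RPS18 to 1512 bp in RPS29.

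An opposite gene within 1 kb upstream was found for 21 of 69 members, against 19.8% of genes with a listed start. Besides those named, they include FAU with MRPL49, RPL9 with LIAS, RPL36A with BTK, RPL12 with LRSAM1 and RPS18 with VPS52. The H3K4me3 width of these 21 had a median of 4403 bp (interquartile range 3973 to 5339 bp), and that of members without an opposite start 3991 bp (3208.5 to 4459.8 bp). The ranges overlap, and the latter group was also above the 2587 bp of all genes. Small nucleolar RNA genes, which lie in introns of many ribosomal protein genes, were inside 29 of 86 members (60 such genes, up to 4 per member), against 2.63% of all genes. Members that hold one had a median width of 4306 bp and the rest 4014 bp. Other protein-coding genes that hold one had 2947 bp.

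By the fold enrichment of H3K4me3 the members were close to other genes. The authors' fold at the strongest peak had a median of 66.0 (range 36.8 to 100.2) against 63.0 over all genes with the mark. It was above the gene median in 49 of 84 members. It was among the highest 10% in 10 of 84 (10.0% of genes with the mark), a share near the background. The fragments at the summit had a median of 277.5 against 256, and 72 of 84 members were above the gene median. The highest folds were 100.2 in RPL5, a protein that carries the 5S ribosomal RNA, 96.3 in RPS4X, 93.7 in RPL3, which lines the peptidyl transferase centre, 92.7 in RPL9 and 92.7 in RPS29. The lowest were 36.8 in RPL7, 37.4 in RPL8, 42.2 in RPS27L, 42.6 in RPL36A and 43.0 in RPS18. RPS27L is a copy of RPS27 known as a p53 target.

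The order of folds did not follow the fragments. Over 84 members the fold had a Spearman coefficient of 0.010 and a Pearson coefficient of -0.103 with the fragments at the summit, and of -0.941 and -0.882 with the expected background of the peak. These are descriptions within 1 library, and the background enters the fold by construction. The fold is the fragments plus 1 divided by the background plus 1, the form under which fold and p of the authors' lists could be matched. RPL5 had 294 fragments, a background of 1.95 and 100.2-fold, and RPL7 had 311 fragments, a background of 7.47 and 36.8-fold. KBM7 is haploid apart from chromosome 8 and a segment of chromosome 15, which are present in more copies, and 8 members lie on these chromosomes (among them RPL7 and RPL8 on 8, and RPLP1 and RPS27L on 15). Their H3K4me3 summits had 310 to 339 fragments and the 76 others 216 to 312. Their background was 5.87 against 3.11 in the median, and their fold 47.4 against 69.9. For H3K27ac their summits had a median of 223 fragments against 143, with a fold of 26.8 against 27.3. This grouping was chosen after the values were seen, and the part of copy number in it was not tested.

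H3K27ac was moderately higher at members than at other genes. The fold had a median of 27.3 (interval of the median 25.3 to 28.7) against 23.0 over the 12629 genes with the mark, and 64 of 84 members were above the gene median. The highest 10% held 6 of 84 (10.0% of genes with the mark), a share that is not above the background. The fragments at the summit had a median of 146.5 against 122, and were above the gene median in 70 of 84. The widest peak had a median of 2322 bp against 1894 bp, with 62 of 84 above the gene median and 4 of 84 in the widest 10% (9.99%). Median folds in the comparison lists were 22.4 for the mitochondrial ribosomal, 24.4 for the proteasome, 25.6 for the oxidative phosphorylation and 29.5 for the translation factor and TOP genes.

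Members of the same subunit, or known from the same disease, differed widely in H3K27ac. The highest fold was 50.5, with 237 fragments, in RPS19, the gene most often mutated in Diamond-Blackfan anaemia, a failure of red cell formation. RPLP2, of the acidic stalk that recruits elongation factors, followed with 46.9, RPL35 with 43.4, RPS12 with 42.1 and RPS26 with 38.5. Among the lowest were 13.7 in RPL11, which with RPL5 binds MDM2 when ribosome assembly fails, 14.3 in RPS24, 15.3 in RPL3L and 16.5 in RPS28. The peak of RPL3L lies at MSRB1, and RPL11, RPS24 and RPS28 had 137, 117 and 120 fragments. Over 84 members the H3K27ac fold had a Spearman coefficient of -0.650 and a Pearson coefficient of -0.558 with the background, which was 9.07 in RPL11 and 7.25 in RPS24.

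**Figure D5:**
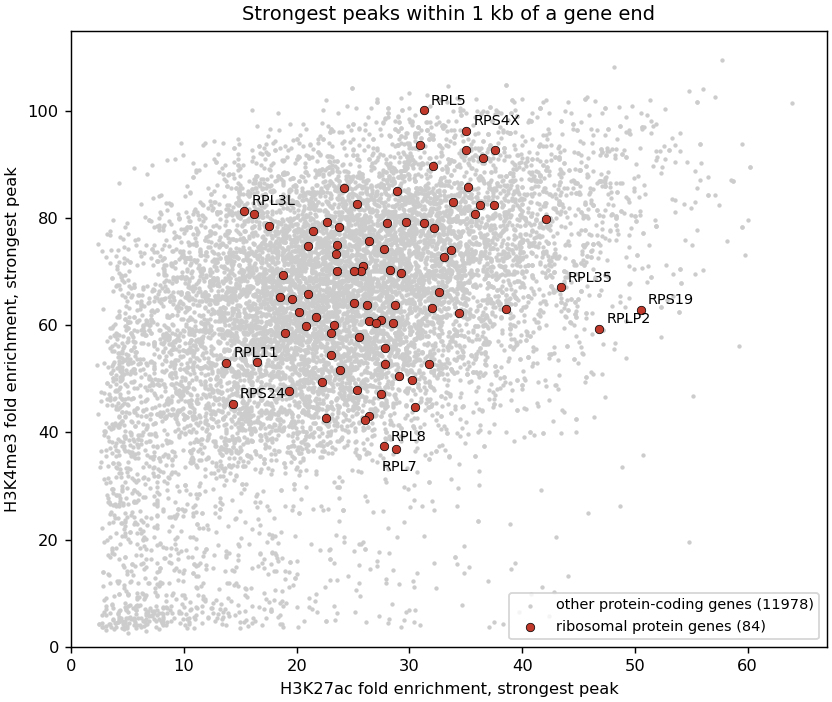
Authors' fold enrichment of the strongest H3K27ac peak (x axis) against that of the strongest H3K4me3 peak (y axis) within 1 kb of a gene end, for the 84 ribosomal protein genes with both marks (red) and other protein-coding genes with both (grey). The red points lie within the grey cloud, between 13.7 and 50.5 for H3K27ac and 36.8 and 100.2 for H3K4me3. In H3K27ac fold, 64 of 84 are above the median of all protein-coding genes with the mark, and none lies at the low end of the cloud.

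The 10 genes known from Diamond-Blackfan anaemia or the 5q- syndrome covered the whole range of H3K27ac, from RPL11 at 13.7 to RPS19 at 50.5, with a median of 21.6. Among those between, RPS26 had 38.5, RPL5 31.3, RPS14 23.5 and RPS24 14.3. Their H3K4me3 folds ran from 45.3 in RPS24 to 100.2 in RPL5, with a median of 62.7. The stalk genes also differed, with H3K27ac folds of 35.2 in RPLP0, 23.9 in RPLP1 and 46.9 in RPLP2, and H3K4me3 folds of 85.9, 51.7 and 59.3. RPLP1 is among the genes on chromosome 15. The subunits were alike in their medians, with 27.1 for the small and 27.5 for the large in H3K27ac, 63.7 and 69.3 in H3K4me3, and H3K4me3 widths of 4077 and 4230 bp.

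The widest H3K27ac peaks were 5719 bp at RPL19, 4687 bp at RPL7, 4578 bp at RPL35, 4165 bp at RPL4 and 4016 bp at RPL23A. Around the start, H3K27ac was split by a dip just upstream. In 59.7% of members a peak covered the position 100 bp before the start, and in 95.5% the start itself. Over the 10022 genes with the mark within 1 kb of the start these shares were 63.8% and 85.7%. Summits on both sides of the start were present in 32 of 67 members (37.4% of those genes) and at least 2 peaks in 33 of 67 (42.2%). The start base was inside a peak in 64 of 67 (85.7%). The strongest summit was downstream in 49 of 67 (70.7%), at a median of 175 bp against 176 bp in those genes. Between the marks, folds had a Spearman coefficient of 0.307 and widths one of 0.337 over 84 members (Pearson 0.273 and 0.368), values that share the local background of each site.

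Of the 8 copies, 6 could be set beside the gene they copy, and no direction was common to them. RPL39L had 52.8-fold H3K4me3 over 1897 bp, beside 63.7-fold over 6347 bp in RPL39, whose protein lines the exit tunnel. RPL36AL was wider than RPL36A, at 6390 against 4403 bp, and RPL22L1 wider than RPL22, at 4230 against 3431 bp, whereas RPS27L and RPS27 had 3098 and 3047 bp. RPL7L1 had 3387 bp beside 6965 bp in RPL7. The width was lower in the copy in 3 of 6 pairs, the H3K4me3 fold in 4 and the H3K27ac fold in 3. RPL3L enters these counts with the peaks at its neighbour, and RPL7L1 with the folds at its neighbour and the width at its own start. At that start its H3K27ac fold of 26.4 was below the 28.8 of RPL7, which would make the last count 4. RPS27L lies on chromosome 15 and RPL7 on chromosome 8, where the background was higher. RPS27L had more H3K4me3 fragments than RPS27 (320 against 249) but a lower fold (42.2 against 66.1). RPL7 had more than the neighbour's peak used for RPL7L1 (311 against 263), also at a lower fold (36.8 against 62.2).

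Members were split by the pyrimidine run at the most upstream listed start, and the groups overlapped in both marks. The group with a shorter run is mixed. Some of its members have a long run within 5 bases of that start, such as RPL4 with 12 bases and RPL17 with 16. The overlap therefore does not compare members with and without a tract. The 43 with a run of at least 8 had a median H3K27ac fold of 27.1, an H3K4me3 fold of 64.9 and an H3K4me3 width of 4230 bp. The 24 with both marks and a shorter run had 25.9, 72.1 and 3881 bp, and the interquartile ranges of the widths overlapped (3725 to 4810 bp and 3178.2 to 4416 bp). The H3K27ac width had a median of 2479 bp with the long run (2026.5 to 3443.5 bp) and 1946.5 bp in the shorter-run group (1729.5 to 3224 bp). The sequences of RPS19 and RPS24 above have runs of 13 and 16 bases, at H3K27ac folds of 50.5 and 14.3.

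Super-enhancers, long regions of joined H3K27ac peaks that the authors ranked by H3K27ac signal minus input, held members about as often as other genes. The gene record overlapped one in 2 of 86 members (2.33%, Wilson interval 0.640 to 8.09%), against 2.92% of all protein-coding genes, and 2 of 86 were named as a target in the authors' deposited table, against 2.25%. RPS14, the gene tied to the anaemia of the 5q- syndrome, lay wholly inside a region of 54.9 kb at 150441707 to 150496599 on chromosome 5, which in the authors' deposited table ranked 139 (rank 1 is the strongest) and had RPS14 as its target. RPS19 overlapped a region of 19.9 kb that began inside its record and ranked 443 in the authors' deposited table, with ARHGEF1 as the target. RPL12 was the target of a region of 26.1 kb at rank 325 of the authors' deposited table that did not reach its record. The ratio of H3K27ac to input signal, which does not set the rank, was in these regions 8.77, 13.5 and 10.1, against a median of 8.11 over all regions of the table.

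Pseudogenes named after the members, most of them processed copies of the messengers, had both marks in few cases. Of 1897 such records with no end of a protein-coding gene within 2 kb, 40 had both marks at an end (2.11%, Wilson interval 1.55 to 2.86%), against 3.29% of 13789 other pseudogenes chosen the same way. H3K27ac was present at 128 of the 1897 (6.75%), a share near the 6.63% of the other pseudogenes, and H3K4me3 at 52 (2.74%), against 4.22%. How reads that match several copies were placed is not stated in the labels.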

How the data were processed

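ChIP-seq values of 1 H3K27ac and 1 H3K4me3 library were used. Bowtie2 2.3.4, bedtools 2.20.1 and the build hg38 are named in the submitters' processing notes. A peak caller was not given in the sources used here. In the deposited peak lists the authors give each peak's score, its fold over background (a ratio at the summit), its −log10 p and −log10 q, and its summit. The authors' super-enhancer table gives a total H3K27ac and input signal per region. Read totals per library were not stated.

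The fragments at each summit and the expected background were recovered from the fold and −log10 p in 100% of rows, within 0.01 on the −log10 scale. A peak counted with 1 bp in the window of 1 kb either side of a gene end. The strongest peak gave fold and fragments, and the widest gave width. Shares have 95% Wilson intervals, and medians exact binomial order-statistic intervals. The steps were tested on simulated data. Python 3.11.15, pandas 2.3.3, numpy 2.4.6, scipy 1.17.1 and matplotlib 3.10.9 were used. RefSeq's gene table gave gene ends, and its promoter table the starts and sequences, the most upstream start per gene. Starts were examined only where one was listed.

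The rule for named genes took members without both marks, the 5 highest and 5 lowest folds and the 5 widest intervals per mark, copies with the gene they copy, super-enhancer members, the anaemia genes and the stalk genes. The narrowest intervals, the members with strongest peaks at neighbours or away from their own start, and those with an opposite gene were named after their values were seen. Some genes the rule names are not reported here. Members and lists were chosen with earlier results of these data known.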

Additional observations from a re-analysis of the deposited data

How the results depend on the processing

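The share of members with both marks, the median fold and width of each mark and the share in super-enhancers (6 results) were recomputed under those of 7 settings that apply to each, 28 values in all (windows of 500 bp and 2 kb, the listed start alone, the stronger 50% of each list by fold, the summit in the window, a gene wholly inside a super-enhancer, and the L-form copies left out). In 27 of these the value stayed inside the interval of the main value. Reach, pyrimidine runs, motifs, fragments and pseudogenes were not recomputed. The exception was the share of members with both marks, which was 100% (78 of 78) without the copies and 97.7% with them. The stronger 50% could not change the folds or that share. The lowest member folds, 13.7 for H3K27ac and 36.8 for H3K4me3, were above the list medians of 4.47 and 10.2. Its widths, and all values of the 2 kb window, equalled the main ones. The intervals cover counting only, so staying inside them does not measure the effect of processing. No paired analysis was possible because each mark has 1 library and no result comes from a test. Folds divide by the local background, which was higher at members on chromosomes 8 and 15. These members ranked lower in H3K4me3 fold than in fragments, and the part of copy number in this was not tested. Members on chromosome 8 enter no result on starts or sequences.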
